A study of Mus musculus with 16 samples.

Results

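The SoxD genes Sox5, Sox6 and Sox13 were followed along their whole gene bodies in the CpG methylation maps of 16 pools of mouse MII oocytes, the mature eggs arrested in the second meiotic division. Sox5 was picked from earlier results of these data because its methylation was low after follicle culture, and Sox6 and Sox13 were taken as its paralogues. They are 3 of the 21728 protein-coding genes analysed, and their gene bodies hold 158 of 118428 bins of 10 kb. In 4 pools (IFC), oocytes came from preantral follicles of 13-day-old females that were cultured for 10 days in medium with serum and FSH and were matured in the dish with hCG and EGF. In 5 pools (SO), 23-day-old prepubertal females were superovulated with 2.5 IU of eCG and then 2.5 IU of hCG. In 4 pools (SOA), 10-week-old adults were superovulated with 5 IU of each hormone, and in 3 pools (IV) oocytes were ovulated naturally by 10-week-old adults whose cycles had been synchronised with male pheromones. All females were C57BL/6J X CBA/Ca F1, all groups were freed of cumulus cells, and each pool holds oocytes of several females, so that differences between single oocytes or females are not resolved. The labels give IFC the age of 23 days, which is the donors' age plus the time in culture.

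SoxD proteins carry an HMG box, the DNA-binding domain of the Sox family, and a coiled coil through which they pair with each other. They lack a recognised activation or repression domain and work by bending DNA and by recruiting or displacing other factors. Sox5 and Sox6 act with Sox9 on the cartilage matrix genes, Sox6 helps to silence embryonic globin with Bcl11a, and Sox13 is known from gamma-delta T cells. In growing oocytes, DNA methylation is laid down after birth, mainly over transcribed gene bodies, by DNMT3A with its cofactor DNMT3L, while most CpG-rich promoters stay free of it. The result is a genome of strongly methylated and nearly unmethylated blocks, and the methylation level of a gene body is the readout used here.

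The methylation level of a region in a pool is the mean percentage of methylated calls over its covered CpG positions. The libraries held between 5218053 and 23065411 calls, and between 65.5% and 91.5% of covered positions carried a single call, so single CpGs are not interpreted. Depth was uneven between groups. The 9 libraries with fewer than 10000000 calls were all 4 IFC pools, 2 of 5 SO pools (SO1 and SO2), 3 of 4 SOA pools (SOA1 to SOA3) and 0 of 3 IV pools. As a check of cell type, 8 CpG-rich starts of imprinted genes that oocytes methylate had between 82.7% and 97.5% methylation, and 6 housekeeping starts had between 1.25% and 13.9%. The lowest of the first values belonged to IV1, where every other pool had at least 90.6%. Its housekeeping starts, at 4.73%, were the lowest of the IV pools, while over the nearly unmethylated first bins of Sox5 and Sox6 it had 15.2% and 12.2% against at most 5.53% and 7.17% in the other IV pools. The gene-body differences between SOA and IV are therefore also given without IV1.

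Sox5 (ENSMUSG00000041540) lies on chromosome 6, positions 143828425 to 144781977 of GRCm38, on the minus strand. It spans 954 kb with 10385 CpGs (10.9 per kb), 14 annotated transcripts that begin at 3 start sites, and antisense transcripts named Sox5os1 to Sox5os5 within it, which bisulfite calls cannot separate from Sox5 itself. Sox6 (ENSMUSG00000051910) lies on chromosome 7, positions 115470872 to 116038796, on the minus strand, spans 568 kb with 4014 CpGs (7.07 per kb) and has 16 transcripts from 5 starts. Sox13 (ENSMUSG00000070643) lies on chromosome 1, positions 133382303 to 133424377, on the minus strand. It is much shorter, 42.1 kb with 799 CpGs (19 per kb), and has 5 transcripts from 2 starts. Between 2622 and 8249 positions of Sox5, between 762 and 2912 of Sox6 and between 183 and 745 of Sox13 were covered per pool. The 95% Wilson intervals of a pool's calls, which cover counting error only, reached from 0.875 points on either side of the value for Sox5 in SOA4 to 6.25 points for Sox13 in IFC2.

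The bases just upstream of the starts are shown because the methylation seen in these genes is low at the distal start and higher inside the gene. Each sequence is the 250 bases before a GENCODE start, read from the GRCm38 reference on the minus strand, 5′ to 3′, with CpGs in capitals. Sox5 start 1, at chr6:144781978-144782227, is the distal start, the one farthest upstream. Start 2 is at chr6:144209569-144209818 and start 3 is at chr6:143947107-143947356.
Sox5 start 1: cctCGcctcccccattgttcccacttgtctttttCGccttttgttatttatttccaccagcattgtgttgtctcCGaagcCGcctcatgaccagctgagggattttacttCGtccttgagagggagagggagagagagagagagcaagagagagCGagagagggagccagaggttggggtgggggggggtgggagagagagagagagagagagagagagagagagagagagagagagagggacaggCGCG
Sox5 start 2: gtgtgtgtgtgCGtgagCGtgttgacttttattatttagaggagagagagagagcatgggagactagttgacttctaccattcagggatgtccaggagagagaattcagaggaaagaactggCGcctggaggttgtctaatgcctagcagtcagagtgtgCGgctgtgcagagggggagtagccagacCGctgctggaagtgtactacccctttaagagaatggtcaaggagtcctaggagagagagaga
Sox5 start 3: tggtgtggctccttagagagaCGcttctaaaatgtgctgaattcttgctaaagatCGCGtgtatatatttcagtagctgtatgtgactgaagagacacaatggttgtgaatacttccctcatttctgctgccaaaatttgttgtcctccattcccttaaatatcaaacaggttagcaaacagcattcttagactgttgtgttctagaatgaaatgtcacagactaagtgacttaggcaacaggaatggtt
They hold 8, 5 and 3 CpGs. Of 32851 RefSeq promoter windows of the same upstream length in GRCm38, 43% hold at least 8 CpGs, 55.6% at least 5 and 71% at least 3. In these 250 upstream bases, none of the Sox5 starts is thus CpG-dense for a mouse promoter. CpGs after the starts were not compared. Within 500 bases on either side of start 1, up to 70 positions were covered in a pool, against at most 10 in its 250 upstream bases.

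The first starts of the paralogues are at chr7:116038797-116039046 and chr7:116031048-116031297 for Sox6 and at chr1:133424378-133424627 for Sox13. They hold 5, 10 and 12 CpGs.
Sox6 start 1: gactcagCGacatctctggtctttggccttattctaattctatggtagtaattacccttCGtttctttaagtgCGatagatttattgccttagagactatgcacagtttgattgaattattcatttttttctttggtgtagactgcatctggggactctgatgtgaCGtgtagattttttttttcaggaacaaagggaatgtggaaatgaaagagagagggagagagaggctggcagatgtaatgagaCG
Sox6 start 2: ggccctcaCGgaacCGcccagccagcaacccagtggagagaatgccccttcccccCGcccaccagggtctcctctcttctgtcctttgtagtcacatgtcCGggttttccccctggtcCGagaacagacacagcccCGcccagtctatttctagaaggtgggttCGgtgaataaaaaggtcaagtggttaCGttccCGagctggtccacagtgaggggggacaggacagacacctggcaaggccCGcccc
Sox13 start 1: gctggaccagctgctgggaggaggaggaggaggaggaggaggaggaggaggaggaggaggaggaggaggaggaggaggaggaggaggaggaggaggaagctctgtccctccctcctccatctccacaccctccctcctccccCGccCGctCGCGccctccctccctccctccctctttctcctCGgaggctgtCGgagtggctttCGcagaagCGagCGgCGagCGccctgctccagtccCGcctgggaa
The Sox13 sequence has its CpGs crowded into the bases nearest the start, behind a long purine repeat, and 33.5% of RefSeq promoters hold at least as many CpGs. At least 10 CpGs, as at the second start of Sox6, are held by 37.8% of promoters.

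3 stretches of 200 bases from inside the genes are shown as examples of the CpGs counted there. Each is the stretch without an annotated exon that had the most covered positions in its least covered group, within the Sox5 bin that differed most between IFC and SO and within the Sox6 and Sox13 bins that differed most between SO and SOA. The Sox5 stretch, chr6:144143229-144143428, lies between starts 2 and 3 and holds 9 CpGs. The Sox6 stretch is chr7:115508652-115508851 and the Sox13 stretch is chr1:133410428-133410627, and each holds 6 CpGs.
Sox5 stretch: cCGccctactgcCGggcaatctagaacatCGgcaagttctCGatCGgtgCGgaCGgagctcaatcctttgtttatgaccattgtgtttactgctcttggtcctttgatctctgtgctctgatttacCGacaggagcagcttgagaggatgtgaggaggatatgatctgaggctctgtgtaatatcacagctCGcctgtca
Sox6 stretch: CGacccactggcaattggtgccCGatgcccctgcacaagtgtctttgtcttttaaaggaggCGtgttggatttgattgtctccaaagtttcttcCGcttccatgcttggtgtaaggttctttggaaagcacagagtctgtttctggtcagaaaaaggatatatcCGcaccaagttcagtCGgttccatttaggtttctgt
Sox13 stretch: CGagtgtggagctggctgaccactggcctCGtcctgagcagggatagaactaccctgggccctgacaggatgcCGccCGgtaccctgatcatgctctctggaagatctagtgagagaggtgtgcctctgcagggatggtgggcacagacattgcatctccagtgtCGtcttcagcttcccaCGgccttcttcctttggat
Over the Sox5 stretch, the pooled calls were 10 methylated of 25 in IFC pools (40%, 95% Wilson interval 23.4 to 59.3), 36 of 55 in SO pools (65.5%, 52.3 to 76.6), 24 of 28 in SOA pools (85.7%, 68.5 to 94.3) and 24 of 33 in IV (72.7%, 55.8 to 84.9). The bin was picked for its difference between IFC and SO, so these counts illustrate it and carry no test. The intervals cover counting error only and treat calls of the same read or pool as independent. Over the Sox6 stretch, they were 17 of 18 in IFC pools, 23 of 28 in SO pools, 14 of 18 in SOA pools and 8 of 15 in IV. The Sox13 stretch had 7 of 21 in IFC pools, 9 of 23 in SO pools, 11 of 35 in SOA pools and 13 of 29 in IV, so that these few calls show no order of the groups, and the differences of the Sox13 gene body are not visible in 200 bases of it.

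At the starts themselves, methylation was low at the distal start of each gene in all 4 groups, counted within 500 bases on either side. At Sox5 start 1, 3 of 101 calls were methylated in IFC pools (2.97%), 3 of 127 in SO pools (2.36%), 2 of 115 in SOA pools (1.74%) and 8 of 201 in IV (3.98%). At Sox6 start 1, 0 of 30, 1 of 57, 3 of 33 and 3 of 71 calls were methylated in the same order of groups. At Sox6 start 2, 1 of 49, 3 of 116, 0 of 44 and 3 of 106 calls were methylated, and at Sox13 start 1 they were 3 of 109, 2 of 196, 0 of 190 and 2 of 146. All methylated IV calls at Sox6 start 2 and at Sox13 start 1 came from IV1. The upper 95% Wilson bounds were at most 10.7% at Sox5 start 1, Sox6 start 2 and Sox13 start 1 and at most 23.6% at Sox6 start 1, where the fewest calls were made. At Sox5 start 2, 4 of 25, 1 of 46, 3 of 18 and 2 of 31 calls were methylated, and at Sox6 start 5 they were 2 of 19, 1 of 54, 0 of 28 and 1 of 26, while starts 3 and 4 of Sox6 had at most 14 calls in a group and are not compared. The innermost starts of Sox5 and Sox13 were more methylated. Sox5 start 3 had 31.2% in IFC pools (16 calls), 29.6% in SO pools (54 calls), 22.2% in SOA pools (45 calls) and 23.1% in IV (52 calls), with intervals that overlap in all groups. Sox13 start 2, which overlaps an exon, had 42.1% in IFC pools, 45.7% in SO pools, 28.8% in SOA pools and 29.1% in IV over 38 to 105 calls, with intervals from 27.9 to 57.8, 36.5 to 55.2, 20.0 to 39.5 and 18.8 to 42.1.

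**Figure D1:**
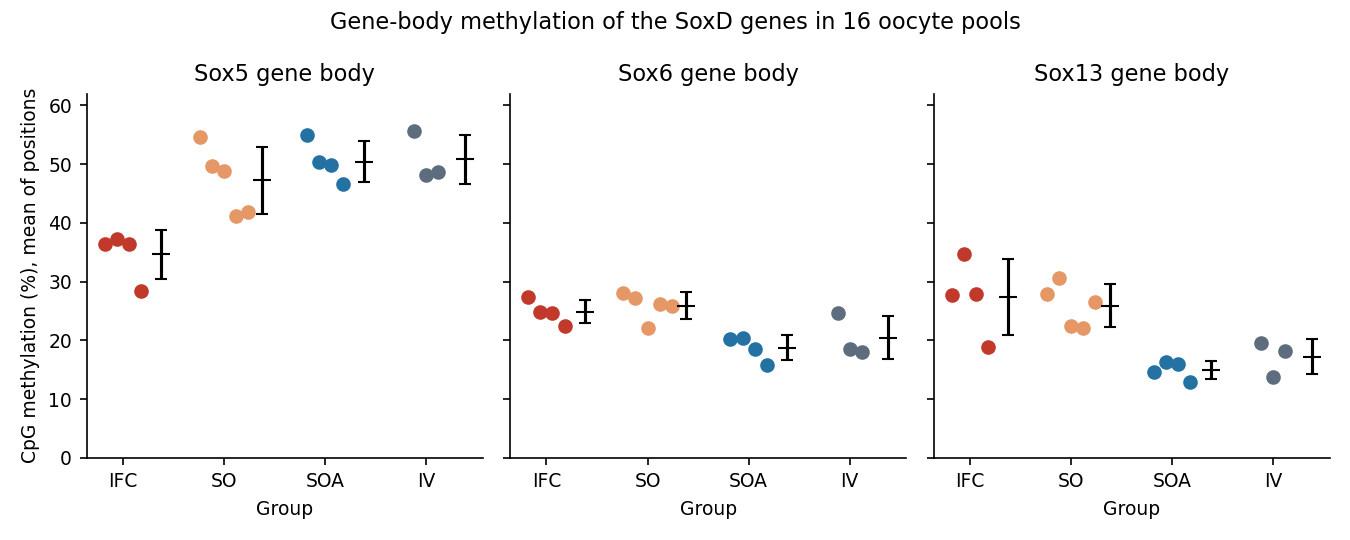
Gene-body methylation (percent of calls methylated, mean over covered positions) of Sox5, Sox6 and Sox13 in each of the 16 oocyte pools, by group, with the group mean and SD. The 4 IFC pools lie between 28.4% and 37.3% for Sox5, below all SO pools, while for Sox6 and Sox13 the IFC and SO pools lie together above the SOA pools.

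Over the whole gene body of Sox5, the IFC pools had 36.3%, 37.3%, 36.4% and 28.4% methylation (mean 34.6% ± 4.16, SD, n = 4). The SO pools had 54.7%, 49.7%, 48.8%, 41.2% and 41.8% (47.2% ± 5.70, n = 5), the SOA pools had 54.9%, 50.4%, 49.9% and 46.6% (50.4% ± 3.44, n = 4), and the IV pools had 55.6%, 48.1% and 48.7% (50.8% ± 4.17, n = 3). Every IFC pool was below every pool of the other groups, and the ranges of SO, SOA and IV overlap. The mean was 12.6 points lower in IFC than in SO (SE 3.29) and 15.8 points lower than in SOA (SE 2.70). These differences are why the gene was picked, so they are described and not tested. As a description of the same values, 194 of the 14340 genes tested had a larger loss than Sox5 between IFC and SO and 249 between IFC and SOA, and of the 2481 of them that span at least 100 kb, 9 and 29 had. The mean over all gene bodies was between 51.1% and 53% in the 4 groups. Single pools differed more. IFC4 had 50.6%, where the other IFC pools had 53.1% to 54.6%, and SOA4 had 49.7%, where the other SOA pools had 52.7% to 54.5%.

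The order of the Sox5 levels was IFC, SO, SOA and IV. SO was 3.18 points below SOA (SE 3.07), less than the spread between the SO pools, and among the shallower libraries (2 against 3 pools) the difference was 0.483 points the other way. As a description, SO had the lower mean in 72 of 95 Sox5 bins of 10 kb. The median difference was -4.49 points, against 0.0183 over all bins. Of the Sox5 bins 0 were called, where 0.872% of all bins were lower and 1.32% higher in SO. SOA and IV, a contrast without cultured follicles, were tested, although the SOA pools are also part of a difference described above. They differed by 0.377 points (SE 2.96, exact permutation test, two-sided p = 0.886, n = 4 and 3), and the model across all genes gave an adjusted p of 0.788 (quasi-binomial F test). Without IV1 the difference was 2.03 points, with SOA higher. SO1 and SO2, the shallowest SO pools, were the highest of their group and SOA4, the deepest library, was the lowest SOA pool, whereas SO3, the deepest SO pool, was above SO4 and SO5. The part of depth in these levels was not tested. Among the libraries under 10000000 calls, IFC was 17.6 points below SO (4 against 2 pools) and 17.1 points below SOA (4 against 3), and with every library thinned to the depth of the shallowest it was 12.6 and 15.7 points below. IFC4 lay apart from the other IFC pools, and without it IFC was 10.6 points below SO and 13.7 points below SOA.

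**Figure D2:**
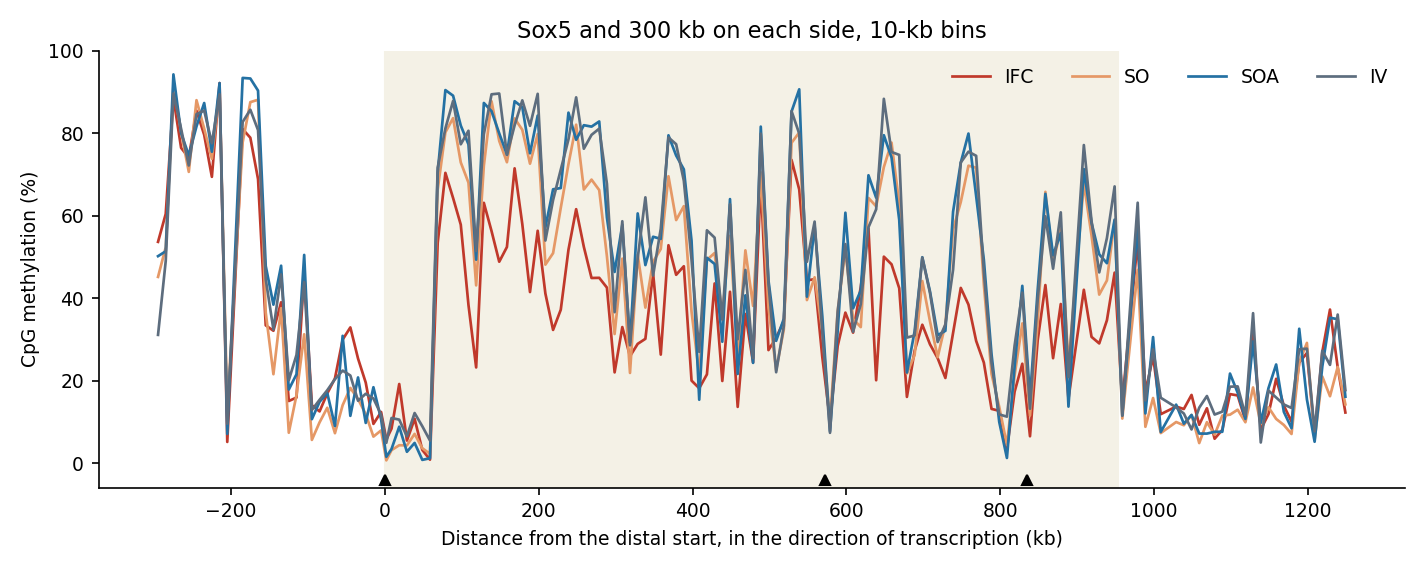
Group mean methylation (percent) of 10-kb bins along Sox5, by distance in kb from the distal start, with 300 kb on either side. The gene body is shaded and triangles mark the 3 annotated starts. The line for IFC runs below those for SO, SOA and IV through most of the gene body but not in the first bins after the distal start.

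Along Sox5 the difference was broad. Of the 95 bins with at least 5 covered positions in every IFC and SO pool, IFC had the lower mean in 83, with a median difference of -12.7 points, against 0.396 points over all bins of all genes, and a range from -42.2 to 14.8. By the rule of the study (logistic regression, Benjamini-Hochberg adjusted p under 0.05 and at least 20 points), 27 of the 95 bins (28.4%) were lower in IFC and 0 were higher. Of all bins of all genes, 0.841% were lower and 0.494% higher. Against SOA, IFC had the lower mean in 80 of 96 bins, with a median difference of -16.9 points, and 43 bins were lower and 0 higher, while of all bins 2.09% were lower and 2.05% higher. Since the gene was picked for this contrast, the counts say how the loss was spread, not whether it is unusual. Both comparisons share the IFC pools. The bins called against SO lay between 104 kb and 924 kb from the distal start, and those against SOA between 73.6 kb and 934 kb. The longest unbroken run of bins with a lower mean in IFC was 27 bins against SO and 35 against SOA. The smallest called difference was 20.5 points and the largest not called was 19.9 points against SO, so the 20-point limit set the edge. The number of called bins against SO was 17 without IFC4, 8 with a quasi-binomial F test, in which pools may vary beyond counting error, and 1 with limma on the percentages. Against SOA it was 12 with limma.

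The bin with the largest loss lay 634 kb to 644 kb from the distal start, at chr6:144138425-144148424, between starts 2 and 3. There the IFC pools had 27.5%, 17%, 21.9% and 13.9%, and the SO pools had 86.4%, 78.9%, 57.3%, 43.4% and 45.3%. All IFC pools were below all SO pools, and the deeper SO3 to SO5 were lower than SO1 and SO2. The SOA pools had 75%, 71.6%, 57.8% and 53% there and the IV pools 72.7%, 49.8% and 62.1%. The second largest loss was in the bin 764 kb to 774 kb from the start, with 29.6% ± 3.2 in IFC pools, 71.6% ± 9.87 in SO pools, 64.8% ± 17 in SOA pools and 74.5% ± 13.5 in IV. The largest gain was near the distal start, 13.6 kb to 23.6 kb inside the gene. IFC had 27.7%, 19.2%, 13.2% and 16.7% there and SO had 3.12%, 0%, 9.59%, 3.39% and 5.56%, again without overlap, at a difference of 14.8 points that is under the limit for a call.

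The gene body thus has 2 parts with different levels, which were set apart after the profile had been seen and so carry no test. The first 7 bins after the distal start, to 63.6 kb, had 7.23% ± 3.02 in IFC pools, 3.95% ± 1.29 in SO pools, 3.64% ± 1.3 in SOA pools and 8.68% ± 5.64 in IV, where IV1 had 15.2% and the other IV pools 5.53% and 5.31%. The other 89 bins had 38.4%, 39.9%, 38.8% and 29.98% in IFC and 58.8%, 52.9%, 52.4%, 43.8% and 44.9% in SO. SOA pools lay there between 50.02% and 58.7% and IV pools between 52% and 58.7%. Every IFC pool was thus below every other pool in the methylated part, and in the first part, which is nearly unmethylated in all groups, IFC was not low.

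The loss did not stop at one of the alternative starts. From the distal to the second start, a stretch of 572 kb, IFC had 37.4% ± 4.44 and SO 50.1% ± 5.71. From the second to the third start it was 28.9% ± 4.17 against 40.7% ± 4.93, and from the third start to the end of the gene 33.1% ± 3.78 against 47.7% ± 8.41. In each of these segments every IFC pool was below every SO pool. Exons, which make up 1.51% of the gene, were more methylated than introns in every group on average, 44.4% ± 8.72 against 34.3% ± 4.21 in IFC pools, 54.7% ± 8.86 against 47% ± 5.66 in SO pools, 62.9% ± 6.66 against 50.1% ± 3.42 in SOA pools and 60.1% ± 12.5 against 50.6% ± 4 in IV, where IV1 had the highest exon value, 73.4%. The intron values of IFC and SO did not overlap (28.1% to 36.9% against 41.1% to 54.3%), whereas the exon values did (32.9% to 52.8% against 44.7% to 65.8%), at 50 to 240 exonic positions per pool.

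**Figure D3:**
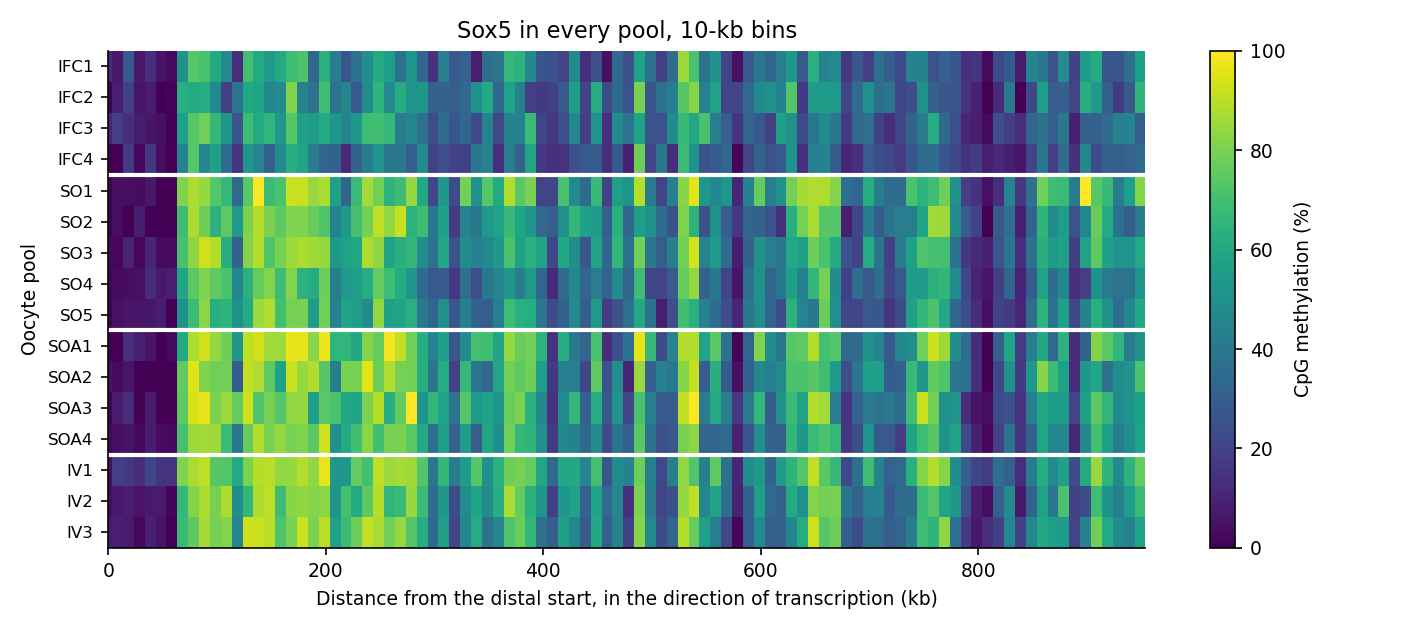
Methylation (percent, colour scale) of each 10-kb bin of Sox5 in each of the 16 pools, one row per pool, ordered by group, by distance in kb from the distal start. Dark colours are low values. The 4 IFC rows are darker than the others over the same long stretches, and IFC4 is the darkest of them.

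How far a Sox5 bin fell in IFC went with how methylated it was in naturally ovulated oocytes. Of the 95 bins, 51 had at least 50% methylation in IV. Their median was 44.9% in IFC pools, 66.3% in SO pools, 72.9% in SOA pools and 74.7% in IV, and IFC was below SO in 51 of 51, with a median difference of -19.4 points. The 33 bins with 20% to 50% in IV had a median difference of -8.49 points, and the 11 bins under 20% differed by a median of 0.123 points. Bins of all genes with at least 50% in IV, 53460 in number, had a median difference of 0.306 points, and 1.36% of them were at least 20 points lower in IFC, against 47.1% of the Sox5 bins. The bins of all genes in this class were more methylated, with a median of 90% in IV. The 5th percentile of the difference over all bins was between -16.4 and -18.2 points at 50% to 80% in IV. From 90% on it was -5.37 points. IFC against SO is again the contrast that chose the gene, and the sorting by IV used pools outside it. A bin near 0% in IV can hardly be lower in IFC.

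**Figure D4:**
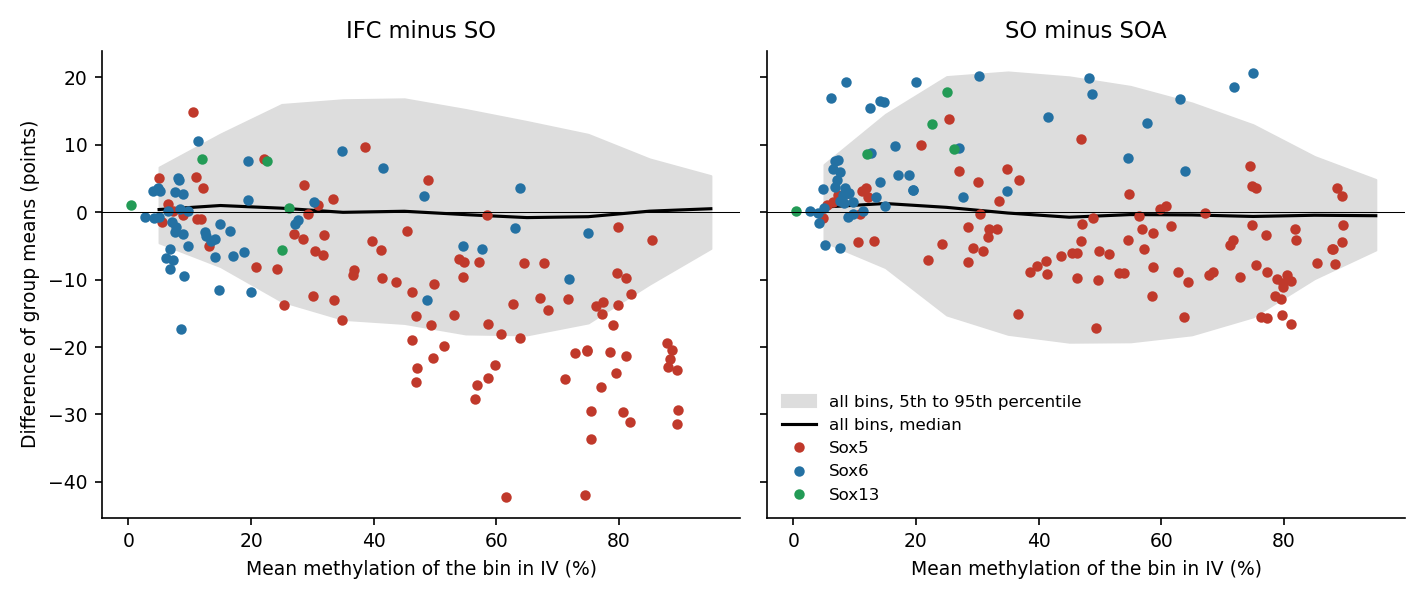
Differences between group means of 10-kb bins (percentage points) against the methylation level of the same bin in naturally ovulated oocytes (percent), for IFC minus SO and for SO minus SOA, with Sox5, Sox6 and Sox13 bins as coloured points and the median and the 5th to 95th percentiles of the bins of all genes behind them. Sox5 bins fall away from the median of all bins as the level in IV rises, down to -42.2 points, and the more methylated Sox6 bins lie above it for SO minus SOA.

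Beside the gene, few bins were methylated enough to show a loss. In the 300 kb downstream of Sox5 the median difference between IFC and SO was 3.85 points over 28 bins, with IFC higher, but 27 of these bins had under 50% methylation in IV. In the 300 kb upstream it was 3.23 points over 29 bins, again with IFC higher. Of these, the 10 bins with at least 50% in IV had a median difference of -2.74 points, and IFC was below SO in 7 of them. The lowest, chr6:144941978-144951977, had 68.9% in IFC pools, 88.1% in SO pools, 90.3% in SOA pools and 80.8% in IV, a difference of -19.2 points, and no bin on either side (0 of 28 and 0 of 29) was at least 20 points lower. Bcat1, the branched-chain amino acid transaminase 212 kb upstream, had 74.5% ± 5.23 in IFC pools, 74.4% ± 1.89 in SO pools, 75.8% ± 3.51 in SOA pools and 72.6% ± 1.91 in IV.

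Sox6, which pairs with Sox5 and shares much of its work in cartilage, did not follow it over the whole gene body. Its IFC pools had 27.3%, 24.9%, 24.7% and 22.5% (24.8% ± 1.97) and its SO pools 28.1%, 27.2%, 22%, 26.3% and 25.8% (25.9% ± 2.32). These ranges overlap, and the means differed by 1.02 points (SE 1.43, exact permutation test, two-sided p = 0.492, n = 4 and 5). The SOA pools had 20.2%, 20.3%, 18.5% and 15.9% (18.7% ± 2.1), below every IFC and every SO pool. The IV pools had 24.6%, 18.6% and 18% (20.4% ± 3.65), where the high value is that of IV1.

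Sox6 was 7.14 points higher in SO than in SOA (SE 1.48, exact permutation p = 0.0159, two-sided, n = 5 and 4, where 0.00794 is the smallest possible) and 6.12 points higher in IFC than in SOA (SE 1.44, exact p = 0.0286, the smallest possible for 4 against 4). Both comparisons share the SOA pools. In the quasi-binomial F test across 14340 genes, with Benjamini-Hochberg adjustment, the adjusted p was 0.00324 for SO against SOA and 0.0261 for IFC against SOA, and both passed the threshold. In this test 1.48% of genes were higher and 0.649% lower in SO than in SOA, and 2.32% were higher and 1.14% lower in IFC than in SOA. Of genes of at least 100 kb, 107 of 2481 had a larger positive difference between SO and SOA than Sox6. The calls rested on SOA4, the deepest SOA library and the lowest in Sox6. SOA4 was also the lowest SOA pool over all gene bodies, at 49.7%. The F test sums calls over the pools of a group, so deep pools weigh more. In Sox6, SOA4 held 4327 calls and the other SOA pools 818 to 1099. The differences in points are unweighted means of pools. Without SOA4 the adjusted p was 0.306 against SO and 0.476 against IFC, although the differences were still 6.18 and 5.16 points, and the exact p was 0.0179 and 0.0571. Without SOA4 the number of genes called higher over the whole table also fell, from 212 to 53 for SO and from 332 to 103 for IFC. The call against IFC was also lost without IFC1 (adjusted p = 0.137), IFC2 (0.0583) or IFC3 (0.0837). With limma on the percentages the adjusted p was 0.0929 for SO and 0.138 for IFC against SOA.

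SOA and IV differed in Sox6 by 1.68 points (SE 2.35, exact p = 0.543, n = 4 and 3, adjusted p = 0.576), with SOA lower, and by 0.423 points with SOA higher without IV1. Between SOA and IV the F test called 0% of all genes in either direction, with 1241 genes at an unadjusted p under 0.05, and limma called 0 as well, so this comparison gives no background to read a gene against. Between IFC and SO, 0.307% of genes were lower and 0.209% higher in IFC, and the adjusted p of Sox6 there was 0.973.

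**Figure D5:**
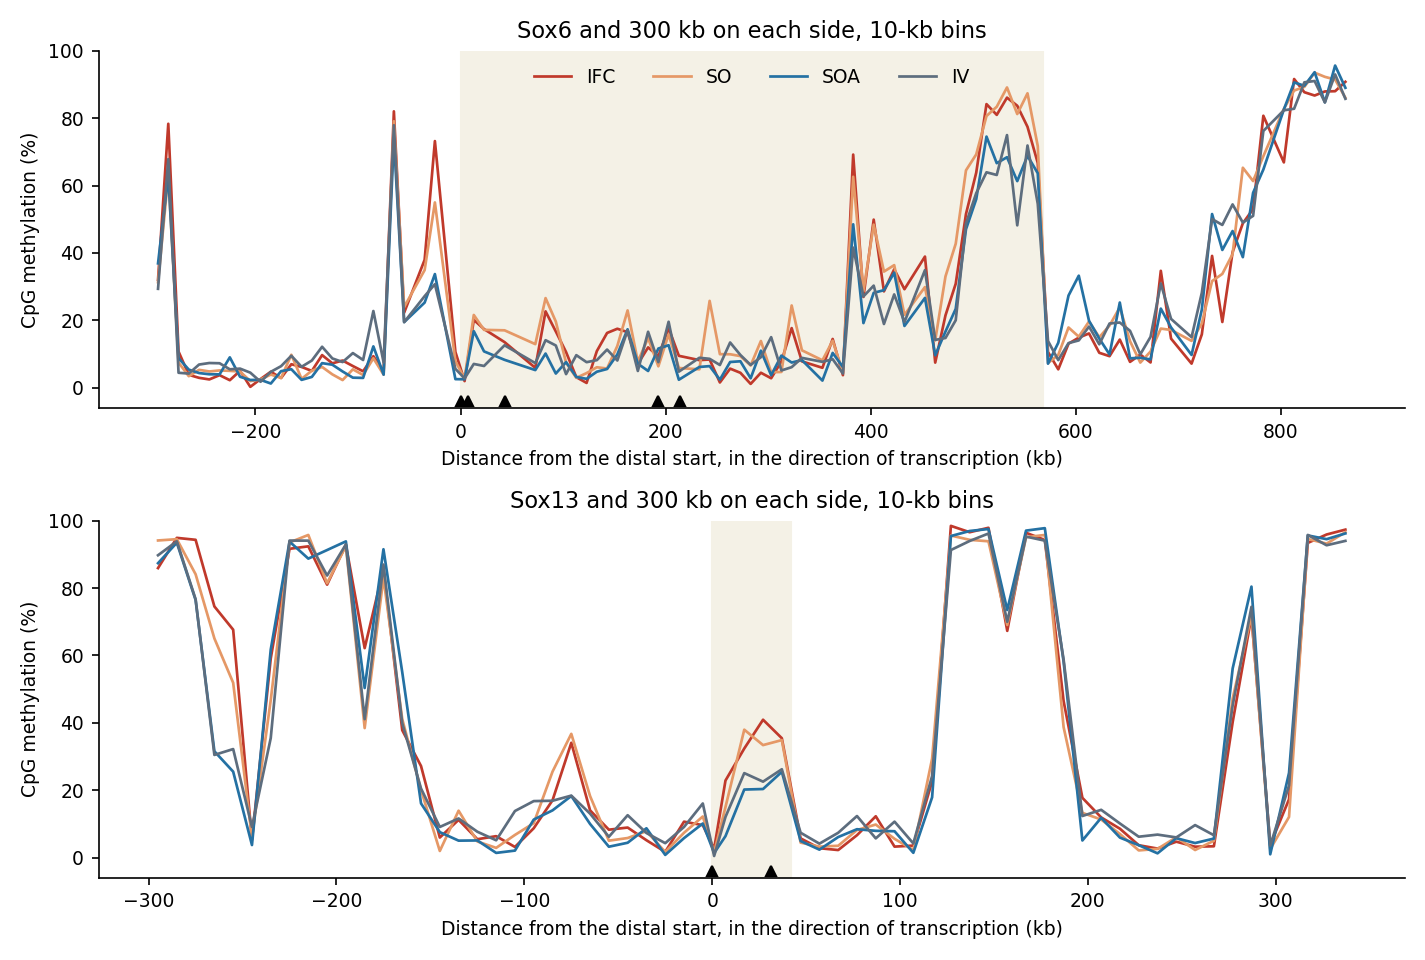
Group mean methylation (percent) of 10-kb bins along Sox6 and Sox13, by distance in kb from the distal start, with the gene body shaded and triangles at the annotated starts. In Sox6 the methylated part is the last 190 kb, where IFC and SO lie above SOA and IV, and in Sox13 the 4 bins inside the gene show the same order.

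The level of Sox6 came from its far end. The first 38 bins, to 378 kb from the distal start, had 9.62% ± 1.64 in IFC pools, 10.2% ± 1.84 in SO pools, 6.8% ± 0.949 in SOA pools and 8.55% ± 3.22 in IV. The last 19 bins, 190 kb, had 56.1%, 54%, 56.8% and 45.8% in IFC and 55.9%, 57.4%, 51.6%, 55.3% and 58.5% in SO. The SOA pools had 45.1%, 49%, 41.8% and 36.9% there and the IV pools 47.8%, 40.2% and 38.5%. All SO pools were above all SOA pools and all IV pools in this part, whereas IFC4, at 45.8%, fell among the SOA pools. This split was also drawn after the profile had been seen. By segment between starts, the last one, 354 kb from the fifth start to the end, had 33.8% ± 3.2 in IFC pools, 35.8% ± 2.66 in SO pools, 26.8% ± 3.66 in SOA pools and 28.1% ± 3.73 in IV, and the first, 7.75 kb between the first 2 starts, had at most 5.33% in any pool.

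Bin by bin, 0 of 54 tested Sox6 bins were called between IFC and SO, near the 0.841% lower and 0.494% higher of all bins. IFC had the lower mean in 35 of the 54, with a median difference of -2.32 points against 0.396 over all bins. In the 6 bins with at least 50% in IV the median was -4.01 points, with IFC lower in 5. Against SOA, 45 of 51 bins were higher in SO, with a median difference of 4.81 points against 0.0183 over all bins, and 2 were called higher, with 0 lower. Of all bins of all genes, 1.32% were higher and 0.872% lower in SO than in SOA, against which the 2 of 51 (3.92%) are to be read. The called bins were chr7:115500872-115510871, with 89.1% ± 9.74 in SO and 68.4% ± 10.5 in SOA, and chr7:115630872-115640871, with 48.4% ± 9.21 and 28.2% ± 5.64. Between IFC and SOA 3 of 52 bins were called higher, chr7:115490872-115500871 (83.7% against 61.3%), chr7:115650872-115660871 (69.2% against 48.5%) and chr7:115970872-115980871 (42.5% against 9.41%). The 3 of 52 (5.77%) are to be read against the 2.05% of all bins that were higher in IFC than in SOA, where 2.09% were lower. The number was 1 without SOA3 or without SOA4 and 5 without SOA2. For SO against SOA it was 1 without SO1 or SOA4, 4 without SOA2 and 5 without SO3. With the quasi-binomial test both numbers were 0. Between SOA and IV 0 of 52 Sox6 bins were called, while of all bins 0.119% were lower and 0.349% higher in SOA.

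In points, the shift between SO and SOA was largest where Sox6 was methylated. In its 6 bins with at least 50% in IV, SO was above SOA in 6 of 6, by a median of 15 points, and in the 8 bins with 20% to 50% it was above in 8 of 8, by 15.8 points. In the 37 bins under 20% it was above in 31, by 3.29 points. The corresponding medians over all bins were -0.5, 0.0264 and 0.909 points, and SO was above SOA in 23913 of 53460, 7482 of 14935 and 16399 of 27039 bins. Exons of Sox6 overlapped between all groups, with means of 41.2% ± 9.22 in IFC pools, 43.6% ± 3.94 in SO pools, 37.7% ± 7.75 in SOA pools and 39.9% ± 1.76 in IV, while intron values of SOA (15% to 19.4%) lay below those of SO (20.6% to 26.7%).

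Sox13, the shortest member, had the largest shift between SO and SOA. Its IFC pools had 27.7%, 34.7%, 27.9% and 18.9% (27.3% ± 6.47) and its SO pools 27.9%, 30.7%, 22.4%, 22.1% and 26.6% (25.9% ± 3.67). These overlap, with a difference of 1.38 points (SE 3.63, exact p = 0.675, two-sided) that turned to -1.09 points without IFC2, the highest IFC pool. The SOA pools had 14.6%, 16.3%, 16% and 12.9% (15% ± 1.55) and the IV pools 19.5%, 13.8% and 18.2% (17.2% ± 2.98). Every SOA pool was below every IFC and SO pool, and SOA overlapped with IV.

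Sox13 was 11.0 points higher in SO than in SOA (SE 1.82, exact permutation p = 0.00794, two-sided, the smallest possible) and 12.3 points higher in IFC than in SOA (SE 3.32, exact p = 0.0286, the smallest possible). The adjusted p across all genes (quasi-binomial F test) was 0.0346 and 0.0116, and both were called, and 403 of 14340 genes had a larger positive difference between SO and SOA. These calls too depended on single libraries. For SO against SOA the adjusted p was 0.490 without SOA4, 0.0567 without SO1, 0.0623 without SO2, 0.0811 without SO5 and 0.0568 without SOA1, and it was 0.109 with the replicate number as a block. For IFC against SOA it was 0.228 without SOA4, 0.0579 without IFC1, 0.0501 without IFC2 and 0.0569 without IFC3, and the exact p was 0.0571 without any one of the SOA pools. The differences themselves stayed between 9.77 and 11.9 points for SO and between 9.87 and 15.1 points for IFC whichever pool was left out. With limma the adjusted p for SO against SOA was 0.0692. SOA was 2.22 points below IV (SE 1.89, exact p = 0.286, adjusted p = 0.786), and 1.04 points below without IV1.

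Of the 5 bins of Sox13, the one at its start was the lowest in each group, and those inside the gene did not rise steadily in every group. The first, 2.08 kb with the distal start, had 2.6% in IFC pools, 1.54% in SO pools, 1.35% in SOA pools and 0.483% in IV. The next had 22.9% ± 8.29, 15% ± 5.48, 6.37% ± 4.91 and 12.1% ± 3.27, and the one after it 32.4% ± 11.6, 38% ± 14.5, 20.2% ± 6.35 and 25.1% ± 10.9. The fourth, which holds the second start, had 40.9% ± 12.4, 33.4% ± 9.99, 20.4% ± 2.75 and 22.5% ± 3.52, and the last 35.4% ± 8.79, 34.9% ± 7.07, 25.5% ± 2.5 and 26.2% ± 4.02. SOA had a lower mean than IFC and SO in all 5 bins. 1 bin, the fourth, was called between IFC and SOA (20.6 points higher in IFC, where 2.05% of all bins were called higher) and 0 between SO and SOA, IFC and SO, or SOA and IV. The call was lost without IFC2, IFC3 or SOA4, and 1 bin was called between SO and SOA without SO1, SO5 or SOA3. Between the starts, over 31.1 kb, IFC had 22.5% ± 5.38, SO 21.5% ± 4.84, SOA 9.8% ± 1.53 and IV 13.4% ± 2.53, and beyond the second start, over 11 kb, they had 37.6% ± 8.51, 36.7% ± 5.68, 28.2% ± 3.8 and 27.4% ± 4.56.

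The members thus had 2 patterns over the 16 pools. Pearson's r of the gene-body levels was 0.831 between Sox6 and Sox13, -0.226 between Sox5 and Sox6 and -0.351 between Sox5 and Sox13. These values describe pools that share group, library and depth, and they carry no test. The genes of at least 100 kb whose levels were most like those of Sox5, among 2480, were Lmx1a (r = 0.955), Nyap2 (0.949), Tenm4 (0.93), Ano4 (0.915) and Plpp4 (0.914). Lmx1a, a LIM homeodomain factor of dopaminergic neurons, had 13.1% ± 1.02 in IFC pools, 22.1% ± 2.63 in SO pools, 25.8% ± 2.89 in SOA pools and 25.2% ± 2.5 in IV, and Tenm4, a teneurin of the cell surface, had 20.9% ± 1.3, 32.2% ± 3.36, 36.7% ± 4.28 and 35.5% ± 2.79. Plpp4, a phospholipid phosphatase, had 54.9% ± 1.64 in IFC and 81.2% ± 6.99 in SO. Among the genes most like Sox6 were Atrnl1 (0.934) and Shisa6 (0.928), an auxiliary subunit of AMPA receptors. Atrnl1 had 42.5% ± 1.82 in IFC pools, 46.4% ± 2.92 in SO pools, 32.8% ± 1.71 in SOA pools and 34.2% ± 3.55 in IV. Most like Sox13 were Mark1 (0.924), a kinase of microtubule-binding proteins, Atg10 (0.915), an enzyme of autophagy, and Fam19a5 (0.912). Mark1 had 57.2% ± 6.57 in IFC pools, 53.7% ± 6.16 in SO pools, 26.3% ± 3.2 in SOA pools and 25.8% ± 4.14 in IV.

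Among the other Sox genes, 10 of 16 had enough covered positions to be tested and 0 were called in any of the 4 comparisons by the F test, in which at most 2.32% of all genes were called in one direction, so that 0 of 10 is near the share of all genes. Their median difference was 0.52 points between IFC and SO, against 0.629 over all genes tested, -0.496 between IFC and SOA, against 0.479, -0.359 between SO and SOA, against -0.145, and 0.453 between SOA and IV, against 1.02. Most are short genes with unmethylated bodies, such as Sox1 (2.55% ± 2.78 in IFC and 1.42% ± 1.56 in SO), Sox4 (2.31% ± 1.77 and 1.16% ± 0.876) and Sox9, the partner of Sox5 and Sox6 in cartilage (1.03% ± 1.74 and 2.44% ± 1.85). Sox8 and Sox10, of the same SoxE group as Sox9, were partly methylated, Sox8 with 32.1% ± 4.36 in IFC and 35.9% ± 9.09 in SO, Sox10 with 36.6% ± 10.1 and 37.3% ± 4.25. Sox30 had 14.8% ± 7.56 in IFC pools, 10.8% ± 4.24 in SO pools, 4.84% ± 1.87 in SOA pools and 8.08% ± 1.48 in IV and was not called in any comparison.

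Of 17 partners and targets of the SoxD proteins, all were tested and 0 were called between IFC and SO, where 0.307% of all genes were lower and 0.209% higher, or between SOA and IV, where 0% were called. Tcf7, the T cell factor of the Wnt pathway that Sox13 binds, was the 1 of 17 called in each comparison with SOA, where 2.32% of all genes were higher in IFC and 1.48% higher in SO. It had 82.8%, 89.1%, 84.2% and 78% in IFC, 82.2%, 80.3%, 88%, 78.6% and 82.8% in SO, 72.5%, 78.7%, 68.5% and 62.1% in SOA and 69.2%, 72.2% and 70.9% in IV. The lowest IFC and SO pools overlap with the highest SOA pool. Tcf7 was 13.1 points higher in IFC (adjusted p = 0.0133) and 11.9 points higher in SO (adjusted p = 0.0045) than in SOA. Without SOA4 the adjusted p was 0.565 and 0.554, although the differences were still 10.3 and 9.16 points. Without IFC1 or IFC3 the adjusted p for IFC against SOA was 0.066 or 0.0638, and with limma that for SO against SOA was 0.0737. The other 16 were not called, among them Ctbp2, a corepressor that Sox6 binds, with 74.1% ± 2.17 in IFC and 75.3% ± 0.608 in SO, and Mitf, the melanocyte regulator, with 90.6% ± 2.39 and 90.4% ± 1.82. The cartilage genes Col2a1 (10.8% ± 1.86 and 9.13% ± 1.78) and Acan (7.98% ± 1.44 and 6.99% ± 1.03) had little methylation. The median difference of the list was -0.175 points between IFC and SO, 1.13 between IFC and SOA, 1.31 between SO and SOA and -0.623 between SOA and IV.

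Of 16 protein-coding genes within 300 kb of a member that could be tested, Lax1, an adaptor of lymphocyte signalling 255 kb upstream of Sox13, was called in both comparisons with SOA, against the 2.32% and 1.48% of all genes called higher there, and the others in none. It had 93%, 88.8%, 75% and 74.5% in IFC, 67.7%, 85.5%, 76.5%, 65.3% and 74.5% in SO, 37.5%, 32%, 39.4% and 52% in SOA and 48.5%, 37.1% and 39.9% in IV, from at least 25 positions. All IFC and SO pools were above all SOA and IV pools. It was 42.6 points higher in IFC (adjusted p = 0.00655) and 33.7 points higher in SO (adjusted p = 0.0369) than in SOA. Leaving out any single one of SO2 to SO5 or of the SOA pools brought the second value to between 0.0553 and 0.106, and with the replicate number as a block it was 0.0830. 1110004F10Rik, which starts 0.601 kb upstream of Sox6 on the other strand, had 37.3% ± 5.69 in IFC pools, 36.5% ± 3.63 in SO pools, 28.1% ± 6.42 in SOA pools and 28.3% ± 2.62 in IV and was not called (adjusted p = 0.5 for SO against SOA).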

How the data were processed

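DNA methylation was measured by post-bisulphite adapter tagging (PBAT) in 16 pools of MII oocytes. Per the labels and the submitters' processing notes, the authors trimmed reads with Trim Galore 0.4.4 and cutadapt 1.9.1 and mapped them to GRCm38 with Bismark 0.19.0. The deposited tables list each covered CpG position with its percent methylation and with counts of methylated calls and of unmethylated calls, and the authors did not normalize these values. The percent column equalled the value computed from the counts. Mapping was to the C57BL/6J reference, so a C-to-T variant of CBA/Ca reads as unmethylated in all groups alike. Groups came from the labels.

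Gene bodies were taken from GENCODE M21 and cut into 10-kb bins from their lowest coordinate. The value of a region in a pool was the mean percent over its covered positions, with at least 5 positions in a bin and 20 in a gene. Comparisons were IFC vs SO, IFC vs SOA, SO vs SOA and SOA vs IV. Single gene bodies were compared by two-sided exact permutation tests (9 tests, unadjusted). Across 14340 genes, calls were fitted by quasi-binomial logistic regression over all 16 pools, with the dispersion squeezed to a common value (limma 3.58.1), and for bins by the likelihood-ratio test of a logistic regression over the pools of both groups, called at an adjusted p under 0.05 and at least 20 points, after the methods of the study. P-values were adjusted by Benjamini-Hochberg over all genes or bins. Python 3.11.15 (numpy 2.4.6, scipy 1.17.1, pandas 2.3.3, matplotlib 3.10.9) and R 4.3.3 were used, and the tests were tested on simulated data.

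The members, lists and tests were chosen with earlier results of these data known. Named genes were the members, the fixed lists, protein-coding genes within 300 kb, the genes of at least 100 kb most like a member by Pearson's r (5 for Sox5 and 3 for each paralogue, of which 1 is not reported here), and the bins of a member that differed most between IFC and SO or held a start. Bins that were called in Sox6, the bins whose sequence is shown for Sox6 and Sox13, and the parts of Sox5 and Sox6 with different levels were chosen after their values had been seen. Replicate numbers were not treated as pairs. Deviations of same-numbered pools correlated between -0.0173 and 0.0852. Pools that correlated best with their own number were 2 in IFC against SO and 3 in IFC against SOA (4 pairs each). They were 2 in SO against SOA (4 pairs) and 1 in SOA against IV (3 pairs). Counting error lowers such correlations, so they cannot exclude pairing. P-values of gene bodies measure the spread between pools, which may be technical, whereas those of the likelihood-ratio test on bins cover counting error only. Depth alternatives, other tests, other limits and the omission of each pool were tried.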

Additional observations from a re-analysis of the deposited data

Results flagged for a closer look

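In 4 of 39 group values checked, 1 pool of a group stood apart by Dixon's criterion at 95%, which chance meets in about 1 of 20 groups. The Sox5 gene body in IFC4 had 28.4%, where the other IFC pools had 36.3% to 37.3%, and over the Sox5 bins beyond the first 7 IFC4 had 29.98% and the others 38.4% to 39.9%. In Sox6, IFC3 had 8.68% between starts 3 and 4, where the others had 14.6% to 15.7%, and 7.16% over the first 38 bins, where the others had 10.3% to 10.6%. Within each gene both values share many of their positions. Over all gene bodies IFC4 was also the lowest IFC pool, at 50.6% against 53.1% to 54.6% in the others.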

How the results depend on the processing

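The gene-body differences kept their direction with pooled calls, reference CpGs only, thinned libraries and equal weight for each 10-kb bin in all 12 member comparisons. Positions with at least 3 calls were too few to be used alone (as few as 13 in Sox5). With the libraries below 10000000 calls, the exact p was 0.0571 for IFC against SOA in Sox6 (5.16 points) and in Sox13 (11.7 points). In IFC against SOA these libraries are all pools but SOA4, so this is the same set as the omission of SOA4. Sox13 was 1.98 points lower in IFC than in SO with these libraries. Called bins were then 1 in Sox5, 1 in Sox6 and 2 in Sox13 in SO against SOA. In IFC against SOA they were 1 in Sox6 and 0 in Sox13. Of all bins, 1220 of 97677 were lower and 1412 higher in SO than in SOA with these libraries. In IFC against SOA, 2630 of 98552 were lower and 1718 higher.

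Bin counts depended on the test and on the limits. Sox5 bins lower in IFC than in SO were 8 with the quasi-binomial F test, 1 with limma and 5 at a limit of 30 points. Against SOA they were 12 with limma, 13 at 30 points and 21 with at least 20 positions. Sox6 bins were 0 in IFC against SOA with the quasi-binomial test, with 20 positions or with bins shifted by 5 kb. They were 1 with limma, at 30 points or with thinned libraries. The 3 bins called in the main test had at most 14 covered positions in the least covered of all pools, which is under 20. In SO against SOA, called Sox6 bins were 0 with the quasi-binomial test, limma, 30 points or 20 positions. The largest Sox6 difference there was 20.7 points, so the 30-point limit could call none. The Sox6 bins called there in the main test had at most 9 covered positions in the least covered of all pools, which is under 20. Sox13 had 0 in IFC against SOA with limma, at 30 points or with shifted bins. Its largest difference there was 20.6 points, so the 30-point limit could call none. Over all genes, the bins lower and higher in IFC than in SO were 844 and 496 with the likelihood-ratio test, 197 and 100 with the quasi-binomial test and 22 and 10 with limma. In IFC against SOA the same tests gave 2061 and 2019, 1123 and 1070, and 600 and 505. In SO against SOA they gave 851 and 1285, 346 and 709, and 115 and 249. At 30 points the counts were 187 and 78, 828 and 689, and 205 and 360 in this order of comparisons. With at least 20 positions, 33158 bins were tested in IFC against SOA and 32285 in SO against SOA, instead of 98552 and 97625. Of these, 690 were lower and 623 higher in IFC than in SOA, and 294 were lower and 379 higher in SO than in SOA. In IFC against SOA, 2109 of 103504 shifted bins were lower and 2116 higher. With thinned libraries 2018 of 94112 were lower and 1725 higher. With limma the adjusted p for SOA against IFC in Sox6 was 0.138, against SO 0.0929, and in Sox13 against SO 0.0692, and 0 partner genes were called in SO against SOA. A dispersion trended on the number of calls changed no call of Sox6, Sox13 or the lists.

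The replicate block was tried although the numbers were not treated as pairs, and it is unable to pass in the exact tests. In SO against SOA it gave an adjusted p of 0.109 for Sox13 and 1 called Sox13 bin. Of all 97672 bins, 842 were lower and 1407 higher there. For the neighbour Lax1 the adjusted p was 0.0830 in the same comparison. The block changed no other call of the members, the lists or Lax1, and left Sox5 14.0 points lower in IFC than in SO. The other neighbours were not followed under it.

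With each pool left out in turn, the Sox6 difference between IFC and SOA ranged from 5.16 to 6.90 points and that of Sox13 from 9.87 to 15.1, and Sox13 in IFC minus SO from -1.09 (without IFC2, adjusted p = 0.996) to 4.17. Sox6 in SOA minus IV changed sign without IV1 (adjusted p = 0.983). Called bins ranged from 17 to 31 in Sox5 (IFC against SO). In IFC against SOA they ranged from 1 to 5 in Sox6 and from 0 to 1 in Sox13. In SO against SOA they ranged from 0 to 1 in Sox5, from 1 to 5 in Sox6 and from 0 to 1 in Sox13, and in SOA against IV from 0 to 1 in Sox5. Over all genes, bins lower and higher in IFC than in SO ranged from 711 to 1012 and from 493 to 738. In IFC against SOA these ranges were 1854 to 2630 and 1718 to 2411. They were 748 to 1445 and 1168 to 1512 in SO against SOA, and 98 to 315 and 277 to 1003 in SOA against IV. The adjusted p for IFC against SOA ranged from 0.00301 to 0.476 in Sox6 and from 0.00202 to 0.228 in Sox13, and for SO against SOA from 0.000266 to 0.306 in Sox6 and from 0.0174 to 0.490 in Sox13. For IFC against SO in Sox13 it ranged from 0.523 to 1.00, and for SOA against IV in Sox6 from 0.259 to 0.983. Called partner genes ranged from 0 to 1 in both comparisons with SOA. Where a call was lost, the cause was not tested. Depth limits Sox13 most, with as few as 183 positions in a pool.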
